A study of Caenorhabditis elegans with 21 samples.

Results

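The genes described here are 9 collagen genes of the *Caenorhabditis elegans* cuticle that set body shape and are not counted among the collagens of the annular furrows. They are *dpy-4*, *dpy-5*, *dpy-13*, *dpy-17*, *rol-6*, *sqt-1*, *sqt-2*, *sqt-3* and *lon-3*. They were chosen by name, with earlier results of these data known, and all 9 were found among the 45461 genes of the count table. All 9 also passed the filter on low counts that left 17498 genes for testing. Poly(A) RNA of whole animals was sequenced in 3 libraries of *hpl-2*(*tm1489*), a strain with a null deletion in the gene for HPL-2, a heterochromatin protein 1 homolog, and in 2 libraries of wild-type N2 (Bristol) animals, all grown at 20°C. The study gives the libraries of each strain as biological replicates. The sample labels give L4 as the stage of *hpl-2*(*tm1489*) and young adult as that of N2, whereas the study's methods give L4 for both, so a difference of genotype and a difference of stage cannot be told apart in these libraries.

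The cuticle is an extracellular coat of cross-linked collagens that the underlying epidermis secretes anew at every molt. Each chain carries stretches of Gly-X-Y repeats, through which chains wind into trimers inside the cell. The chains are hydroxylated, and the trimers are trimmed by proteases, secreted and cross-linked by disulfide and tyrosine bonds. Mutations in the 9 genes were found by the shape of the animal: dumpy animals are short and stout, squat and roller animals are short or twist helically around their own axis, and long animals are stretched. Collagen transcripts are known to be made in pulses that repeat with each molt.

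The libraries held from 95252804 to 114718047 counts in *hpl-2*(*tm1489*) and from 66490671 to 80724052 counts in N2. Counts of the *hpl-2* gene itself were 3409, 3452 and 2733 in the mutant libraries 1, 2 and 3, against 3130 and 2079 in N2 libraries 1 and 2. Its log2 fold change was -0.42 (standard error 0.26; adjusted p 0.192 in edgeR's quasi-likelihood test), and since the count covers the whole gene, reads from the deleted stretch were not seen apart. Its call depended on settings, as it passed the threshold with upper quartile scaling (-0.74, adjusted p 0.0324) and without *hpl-2*(*tm1489*) replicate 2 (-0.55, adjusted p 0.0279). Markers of muscle, intestine, neurons and germ line (*myo-3* and *unc-54*, *ges-1* and *elt-2*, *rab-3* and *unc-119*, *pgl-1* and *glh-1*) all passed the count filter. Of these 8 markers 6 were called lower in *hpl-2*(*tm1489*), at an adjusted p under 0.1 in the same test. By this rule 61.5% of all tested genes were called in either direction, 27.6% as lower and 33.9% as higher. The log2 fold changes were -3.12 (*myo-3*) and -4.40 (*unc-54*) in muscle, -0.95 (*ges-1*) and -0.88 (*elt-2*) in intestine, -0.71 for *rab-3* in neurons and -0.67 for *glh-1* in the germ line. *unc-119* (0.04) and *pgl-1* (-0.28) were not called. In whole animals, fewer cells of a type and less RNA per cell cannot be told apart.

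Transcripts of 8 of the 9 body shape collagens were lower in *hpl-2*(*tm1489*) than in N2, by 7.85-fold to 20.8-fold, and *dpy-17* was not called in either direction. Each of these 8 genes had its highest mutant level under its lowest N2 level. Calls were made with edgeR's quasi-likelihood test over all 17498 genes, after Benjamini-Hochberg adjustment and at the study's FDR of 10% (adjusted p under 0.1). Of all tested genes 61.5% were called by this rule, 27.6% as lower and 33.9% as higher. The strains were separated without overlap, with the mutant lower, for 33.0% of tested genes, and with the mutant higher for 39.0%. The median log2 fold change of the 9 genes was -4.02, beside 0.16 over all tested genes. A call with a log2 fold change of -2 or below was reached by 8.52% of tested genes, and by 8 of the 9 collagens.

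**Figure D1:**
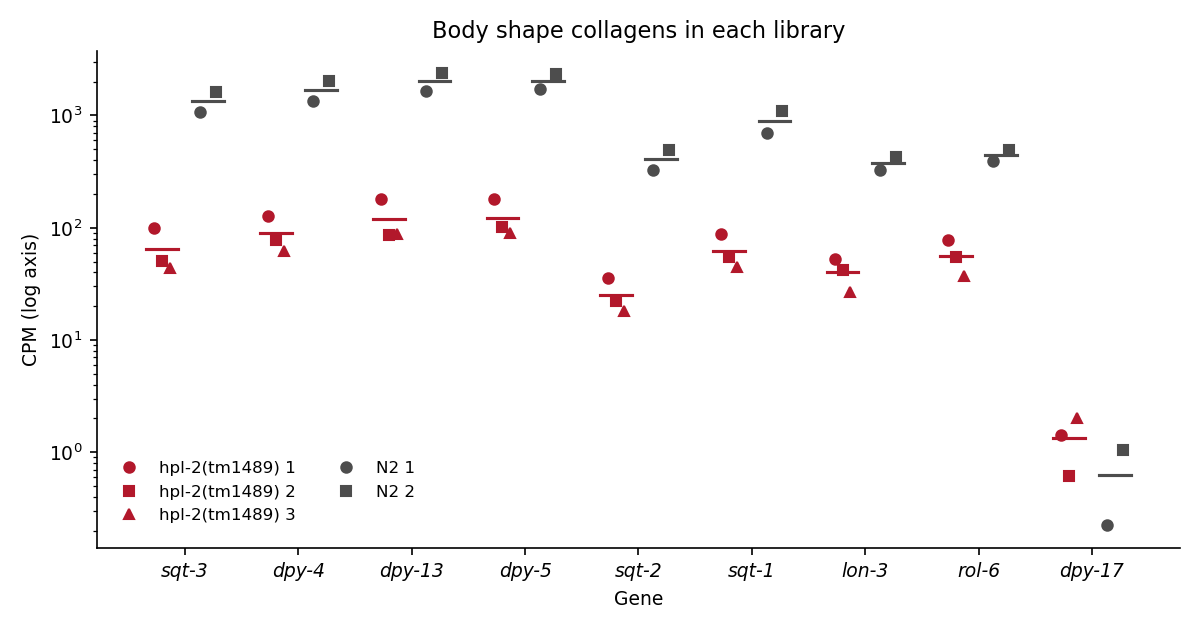
Level (CPM, log axis) of the 9 body shape collagens in the 3 *hpl-2*(*tm1489*) libraries (red) and the 2 N2 libraries (grey), with a bar at each group mean. For 8 genes every red point lies below every grey point, from 18.1 to 182 CPM against 328 to 2374 CPM, and only *dpy-17* lies near 1 CPM with points of both groups overlapping.

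Among the dumpy genes, *dpy-5* encodes a collagen that needs proteolytic trimming for its function. In *hpl-2*(*tm1489*) 22815, 11576 and 8173 counts were found in replicates 1, 2 and 3, against 139480 and 125952 in N2 replicates 1 and 2. Every mutant library was far below the lower N2 library although the mutant libraries were deeper. As CPM, the count per 1000000 counts of library size after TMM (trimmed mean of M values) scaling, its level was 123 ± 48.2 CPM (SD, n = 3) in *hpl-2*(*tm1489*) and 2037 ± 428 CPM (SD, n = 2) in N2. The log2 fold change was -4.05 (standard error 0.36; adjusted p 3.94e-05 in edgeR's quasi-likelihood test). *dpy-13* had 23221, 9809 and 8101 counts in *hpl-2*(*tm1489*), against 132960 and 127810 counts in N2. Its log2 fold change of -4.08 (standard error 0.39; adjusted p 4.97e-05, same test) was nearly that of *dpy-5*, and replicate 1 again stood highest among the mutant libraries. *dpy-4* had 16311, 8905 and 5699 counts in *hpl-2*(*tm1489*), against 108803 and 108914 counts in N2. Its log2 fold change was -4.24 (standard error 0.37; adjusted p 3.73e-05, same test), an 18.9-fold lower level.

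*dpy-17* encodes a collagen that acts together with SQT-3 in body shape. It was counted rarely in all 5 libraries, with 182, 70 and 184 counts in the mutant libraries 1, 2 and 3, against 18 and 56 counts in N2 libraries 1 and 2. After scaling, these were 1.42, 0.616 and 2.01 CPM in *hpl-2*(*tm1489*) and 0.224 and 1.04 CPM in N2, so that *hpl-2*(*tm1489*) replicate 2 lay below N2 replicate 2 and the groups overlapped. The log2 fold change of *dpy-17* was 1.13 with a standard error of 0.68, and it did not pass the threshold (adjusted p 0.187 in edgeR's quasi-likelihood test). It was the 1 gene of the 9 whose fitted value was above 0. Without N2 replicate 2, the log2 fold change was 2.60 and passed the threshold (adjusted p 0.0214), whereas over all alternative fits the adjusted p ran from 0.0214 to 0.639.

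Among the squat and roller genes, *sqt-3* encodes an essential collagen whose strong alleles block development. It had 12627, 5783 and 4007 counts in *hpl-2*(*tm1489*), against 86878 and 86324 counts in N2. Its log2 fold change of -4.38 (standard error 0.40; adjusted p 4.26e-05 in edgeR's quasi-likelihood test) was the most negative of the 9 genes, a 20.8-fold lower level. *sqt-1* and *rol-6* encode collagens that interact in genetic tests, since the dominant roller allele of *rol-6*, widely used as a transformation marker, needs functional *sqt-1*. *sqt-1* had 11134, 6179 and 4083 counts in *hpl-2*(*tm1489*), against 56567 and 59251 counts in N2, with a log2 fold change of -3.86 (standard error 0.36; adjusted p 4.48e-05, same test). *rol-6* had 9914, 6225 and 3401 counts in *hpl-2*(*tm1489*), against 31952 and 26423 counts in N2, with a log2 fold change of -2.97 (standard error 0.33; adjusted p 0.000105, same test). *rol-6* thus had the smallest decrease among the 8 genes called lower, and its 2 groups of libraries did not overlap. *sqt-2*, a further squat gene, had 4582, 2506 and 1649 counts in *hpl-2*(*tm1489*), against 26353 and 26572 counts in N2. Its log2 fold change was -4.02 (standard error 0.36; adjusted p 4.10e-05, same test).

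*lon-3* acts on body length in the opposite sense to the dumpy genes, as animals without it are long and animals with too much of it are dumpy. Its counts were 6786, 4749 and 2434 in *hpl-2*(*tm1489*), against 26492 and 22840 counts in N2. Its level was 40.5 ± 13.3 CPM (SD, n = 3) in *hpl-2*(*tm1489*) and 377 ± 67.1 CPM (SD, n = 2) in N2, a log2 fold change of -3.22 (standard error 0.33; adjusted p 6.87e-05 in edgeR's quasi-likelihood test). The gene whose loss lengthens the animal was therefore lower together with those whose loss shortens it. In the WBcel235 annotation *lon-3* overlaps *ogdh-2*, and reads of overlapping genes are uncertain because, although the kit marks strand, the strand setting of the counting is not given in the sources used here. *ogdh-2* had a log2 fold change of -0.0025 (adjusted p 0.996, same test), at 91.8 CPM in *hpl-2*(*tm1489*) and 91.9 CPM in N2.

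**Figure D2:**
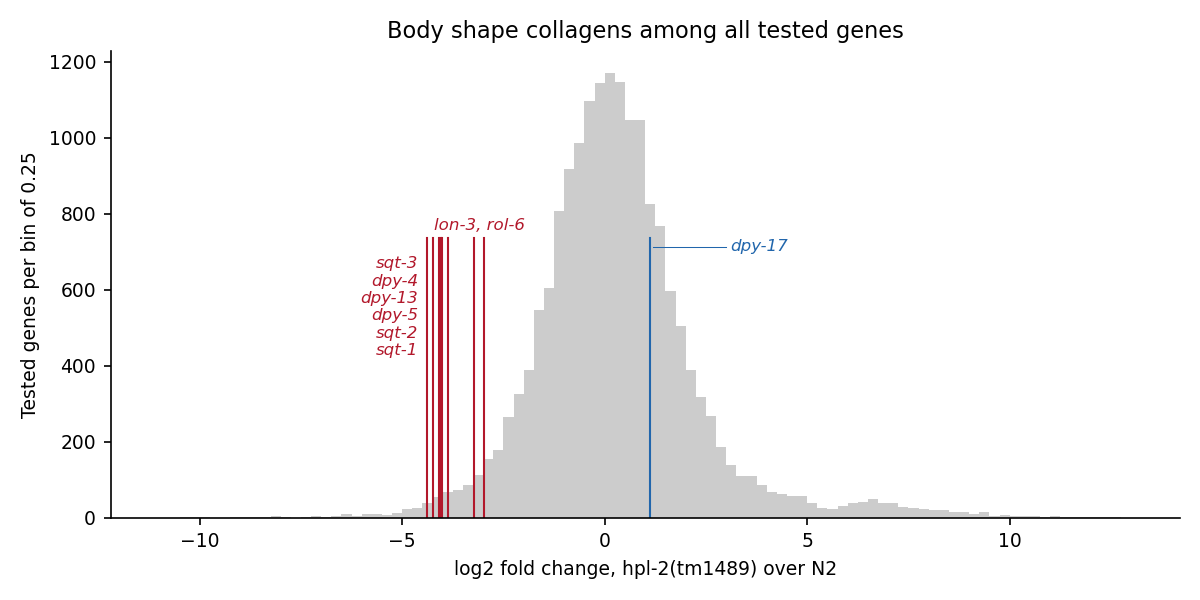
Histogram of the log2 fold changes (*hpl-2*(*tm1489*) over N2) of all 17498 tested genes in bins of 0.25, with a line for each of the 9 body shape collagens. The 8 collagens called lower (red) lie between -4.38 and -2.97, and *dpy-17* (blue) lies at 1.13, within the bulk of tested genes.

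Among all tested genes ordered from the most negative log2 fold change upward, *sqt-3* stood at percentile 0.897 and *rol-6* at percentile 3.35, with the other 6 genes called lower between them. *dpy-17* stood at percentile 73.4. By CPM, the 8 genes ranked from 1404 (*dpy-5*) to 6229 (*sqt-2*) of the 17498 in *hpl-2*(*tm1489*), and from 96 (*dpy-5*) to 491 (*lon-3*) in N2. Together the 9 genes took 0.0938%, 0.0570% and 0.0396% of all counts in *hpl-2*(*tm1489*) replicates 1, 2 and 3, against 0.755% and 0.879% in N2 replicates 1 and 2. The widest of the 95% Wilson intervals of these shares reached from 0.876% to 0.881%, in N2 replicate 2, and such intervals cover counting error only. The spread between libraries of 1 strain was far wider than counting error, and the gap between the strains wider still.

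The 8 genes varied together among libraries of 1 strain. Relative to the mean of N2 on the log2 CPM scale, their median was -3.47, -4.25 and -4.48 in *hpl-2*(*tm1489*) replicates 1, 2 and 3, and replicate 1 had the highest level of all 8 genes among the mutant libraries. The highest mutant library exceeded the lowest by 1.95-fold (*sqt-1*) to 2.25-fold (*sqt-3*). N2 replicate 2 was above N2 replicate 1 for all 8 genes after TMM scaling, by 1.24-fold (*rol-6*) to 1.57-fold (*sqt-1*). Part of this rise comes from the scaling, since the TMM factor was 0.997 in N2 replicate 1 and 0.810 in N2 replicate 2. The smaller factor raises every gene of replicate 2 alike. *dpy-17* did not follow this order in the mutant, where replicate 3 was highest and replicate 2 lowest.

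**Figure D3:**
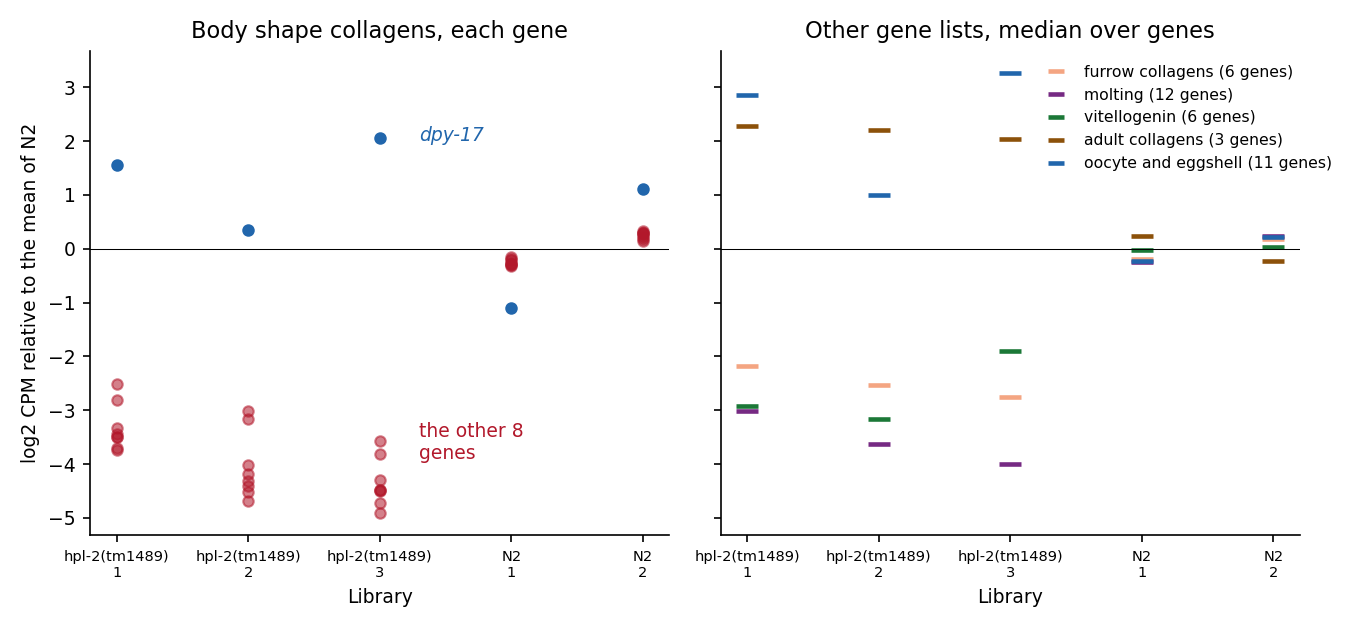
Left, log2 CPM of each body shape collagen in each library relative to the mean of the N2 libraries, with *dpy-17* in blue and the other 8 genes in red. Right, the median of 5 other gene lists on the same scale. The 8 red genes lie between -4.91 and -2.51 in the *hpl-2*(*tm1489*) libraries, the molting list lies at -3.02, -3.63 and -3.99, and the adult collagens lie above 2.

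Levels of different genes were compared per kb of gene span. In *hpl-2*(*tm1489*) 3 dumpy genes led, with *dpy-5* at 144 ± 56.4 CPM per kb (SD, n = 3), *dpy-13* at 109 ± 49.7 and *dpy-4* at 72.1 ± 27.4. *sqt-1* (54.2 ± 19.4 CPM per kb), *rol-6* (47.5 ± 17), *sqt-3* (40.9 ± 19), *lon-3* (35.3 ± 11.5) and *sqt-2* (22.3 ± 8.23) followed, and *dpy-17* was last at 1.16 ± 0.604. Among neighbors in the mutant order only *sqt-2* and *dpy-17* had libraries that did not overlap. Compared within each library, every gene was above the next in all 3 mutant libraries, except *sqt-3* over *lon-3*, in 2 of 3. In N2 the order was *dpy-5* (2382 ± 501 CPM per kb; SD, n = 2), *dpy-13* (1841 ± 466), *dpy-4* (1359 ± 382), *sqt-3* (851 ± 235), *sqt-1* (788 ± 245), *rol-6* (373 ± 55.6), *sqt-2* (362 ± 104), *lon-3* (328 ± 58.4) and *dpy-17* (0.544 ± 0.497). Only *dpy-4* and *sqt-3*, *sqt-1* and *rol-6*, and *lon-3* and *dpy-17* were neighbors in this order whose N2 libraries did not overlap. Compared within each library, every gene was above the next in both N2 libraries, except *rol-6* over *sqt-2*, in 1 of 2. *sqt-3* came after *sqt-1* and *rol-6* in *hpl-2*(*tm1489*) and before both in N2. Within each of the 3 mutant libraries *rol-6* was above *sqt-3* per kb, and within both N2 libraries it was below it.

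The make-up of this collagen pool was then compared within each library, where the scaling between libraries plays no part. *rol-6* made up 8.57%, 10.4% and 8.34% of the summed counts per kb of the 9 genes in *hpl-2*(*tm1489*) replicates 1, 2 and 3, against 4.88% and 4.24% in N2 replicates 1 and 2. *lon-3* made up 6.08%, 8.20% and 6.19% in *hpl-2*(*tm1489*), against 4.19% and 3.79% in N2. Both shares were larger in every mutant library. *sqt-3* made up 8.24%, 7.28% and 7.42% in *hpl-2*(*tm1489*), against 10.0% and 10.5% in N2, and *dpy-4* made up 13.5%, 14.2% and 13.4% against 15.9% and 16.7%. Both shares were smaller in every mutant library. *sqt-2* made up 4.26% ± 0.116 (SD, n = 3) in *hpl-2*(*tm1489*) and 4.35% ± 0.175 (SD, n = 2) in N2, with overlapping libraries. *dpy-5* made up 27.4% ± 0.518 (SD, n = 3) in *hpl-2*(*tm1489*) and 28.9% ± 1.09 (SD, n = 2) in N2. Its libraries did not overlap per kb, but they did when counts were used without division by span. *dpy-13* made up 20.4% ± 2.27 (SD, n = 3) in *hpl-2*(*tm1489*) and 22.2% ± 0.142 (SD, n = 2) in N2, and was smaller in every mutant library. *sqt-1*, at 10.4% ± 0.356 against 9.43% ± 0.632, was larger in every mutant library. *dpy-17* made up 0.161%, 0.120% and 0.462% in *hpl-2*(*tm1489*), against 0.00282% and 0.00920% in N2. Its share was larger in every mutant library but rests on low counts. With 3 against 2 libraries there are 10 orderings, so no exact two-sided test of a share can pass 0.05 and none was made.

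**Figure D4:**
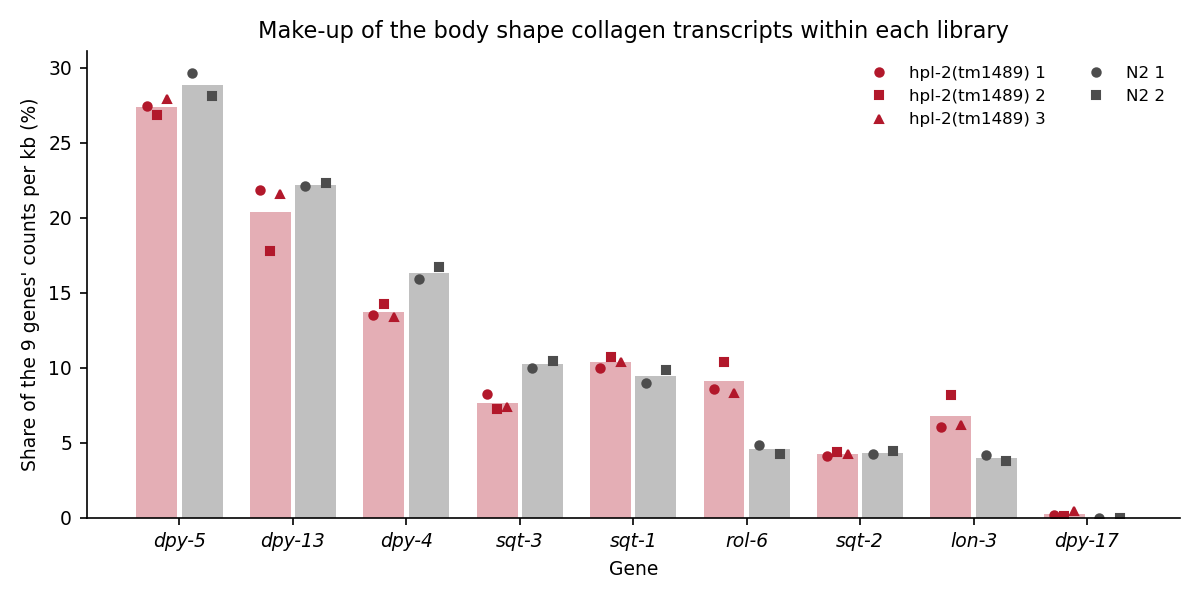
Share (%) of each gene in the summed counts per kb of gene span of the 9 body shape collagens, within each library (points) and as the group mean (bars), *hpl-2*(*tm1489*) in red and N2 in grey. The *rol-6* and *lon-3* points of *hpl-2*(*tm1489*) lie above those of N2, the *sqt-3* and *dpy-4* points lie below, and the *sqt-2* points overlap.

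The ratio of *rol-6* to *sqt-1* within a library was -0.17, 0.01 and -0.26 on the log2 scale in *hpl-2*(*tm1489*) replicates 1, 2 and 3, against -0.82 and -1.17 in N2. The ratio of *rol-6* to *sqt-3* was -0.35, 0.11 and -0.24 in *hpl-2*(*tm1489*), against -1.44 and -1.71 in N2, a difference of 1.42 between the group means. By contrast, the ratio of *dpy-5* to *dpy-13* was -0.03, 0.24 and 0.01 in *hpl-2*(*tm1489*), against 0.07 and -0.02 in N2, and the libraries overlapped. Of the 36 pairs among the 9 genes, 32 had ratios that did not overlap between the strains, as did 24 of the 28 pairs without *dpy-17*. Over all pairs of tested genes this share was 72.7%, so that non-overlapping ratios were common in these libraries at large.

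The 8 genes did not lie in 1 cluster. In the WBcel235 annotation *rol-6*, *sqt-1* and *sqt-2* are on chromosome II, *dpy-4* and *dpy-13* on IV, *lon-3* and *sqt-3* on V, and *dpy-5* on I, whereas *dpy-17* is on III. Besides *lon-3*, *dpy-4* overlaps *atln-2*, which had at most 225 counts in any library, and *sqt-3* overlaps a noncoding RNA gene with at most 3 counts. Collagen genes share repeats, and the table holds uniquely mapped reads only, so reads that fit several collagens alike are not in these counts.

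The profile most like that of the 9 genes was sought among all other tested genes, as the Euclidean distance between log2 CPM over the 5 libraries, each profile centered on its own mean. The nearest were *ptr-16*, a patched-related gene, at a distance of 0.146, *grl-15*, a ground-like gene, at 0.159, *lpr-6*, a lipocalin-related gene, at 0.180, *ZK1025.3* at 0.219 and *T10B5.10* at 0.233. Their log2 fold changes ran from -3.45 (*lpr-6*) to -3.18 (*T10B5.10*). The mean profile includes *dpy-17*, which lay at a distance of 5.30 from it, against 0.475 (*lon-3*) to 1.25 (*sqt-3*) for the other 8 genes. With 5 libraries in 2 groups, such likeness rests mostly on the difference between the strains.

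Other collagens that shape the cuticle were lower as well. All 6 furrow collagens, *dpy-2*, *dpy-3*, *dpy-7*, *dpy-8*, *dpy-9* and *dpy-10*, which line the annular furrows, were called lower, with a median log2 fold change of -2.43 and values from -3.30 (*dpy-3*) to -1.57 (*dpy-8*). *bli-1* and *bli-2*, collagens of the struts that join the cuticle layers, had log2 fold changes of -4.16 and -2.56, and *rol-8*, a further roller collagen, of -3.79. All 3 were called lower. In contrast, *col-7*, *col-19* and *col-62*, collagens made for the adult cuticle, were all called higher, with log2 fold changes of 2.55, 1.68 and 2.16. Among the 144 tested genes with a numbered *col* name, 76 were called lower and 37 higher, with a median log2 fold change of -1.08. By the same rule, 27.6% of all tested genes were called lower and 33.9% higher.

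Of 10 genes for enzymes that modify, trim or cross-link cuticle collagens, 6 were called lower and 0 higher, with a median log2 fold change of -0.83. The share called in either direction was thus close to the 61.5% of all tested genes called, and 27.6% of all tested genes were called lower. None of the 10 had an unadjusted p under 0.05 in the higher direction in edgeR's test, and DESeq2 called 0 higher. The largest decreases were in *dpy-18*, a catalytic subunit of prolyl 4-hydroxylase, with 66.6 ± 13.6 CPM (SD, n = 3) in *hpl-2*(*tm1489*) and 482 ± 111 CPM (SD, n = 2) in N2, and in *dpy-11*, a thioredoxin-like protein, with a log2 fold change of -2.61. *pdi-2*, the protein disulfide isomerase that serves as the other subunit of prolyl 4-hydroxylase, had a log2 fold change of -1.78, and *phy-2*, another catalytic subunit, of -1.32. The dual oxidase gene *bli-3* and its maturation factor *doxa-1* were called lower at -0.93 and -0.74. Not past the threshold were the convertase gene *bli-4* (-0.37), the peroxidase gene *mlt-7* (-0.13), the tetraspanin gene *tsp-15* (-0.11) and *dpy-31* (0.31), whose astacin protease trims SQT-3. Removing each library's trend with gene span put *bli-4*, *dpy-31* and *mlt-7* past the threshold as higher, at 0.60, 0.73 and 0.76, and ended the lower call of *bli-3* (-0.25, adjusted p 0.388 in edgeR's quasi-likelihood test).

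Of 10 genes of the BMP pathway that sets body size, 4 were called lower and 1 higher, with a median log2 fold change of -0.45. The share called in either direction was not more than the 61.5% of all tested genes. Of all tested genes 27.6% were called lower and 33.9% higher. The ligand gene *dbl-1* was lower by a log2 fold change of -1.20, the Smad gene *sma-3* by -0.62, *sma-9* by -1.21 and *lon-1*, a target that the pathway represses, by -1.76. *sma-4*, the co-Smad gene, was higher by 0.90. Removing the trend with gene span left *dbl-1* and *lon-1* called lower and *sma-2* and *sma-4* called higher. Without N2 replicate 2, 0 of the 10 were called higher and 5 lower.

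Of 7 transcription factor genes of the epidermis, 4 were called lower and 0 higher in edgeR's test, with a median of -0.84, and DESeq2 called 6 lower and 0 higher. None had an unadjusted p under 0.05 in the higher direction in edgeR's test. The share called by edgeR in either direction was again near the 61.5% of all tested genes, and 27.6% of all tested genes were called lower. *nhr-25*, a nuclear receptor needed for molting, was lower by a log2 fold change of -3.09, *blmp-1* by -2.48, *grh-1* by -2.32 and *elt-1*, which specifies epidermal fate, by -0.67. *elt-3*, a GATA factor of the differentiated epidermis, had a log2 fold change of -0.07 (adjusted p 0.845 in edgeR's quasi-likelihood test). Also not called by edgeR were *nhr-23* (-0.84, adjusted p 0.116, same test) and *lin-26* (-0.67, adjusted p 0.134, same test).

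**Figure D5:**
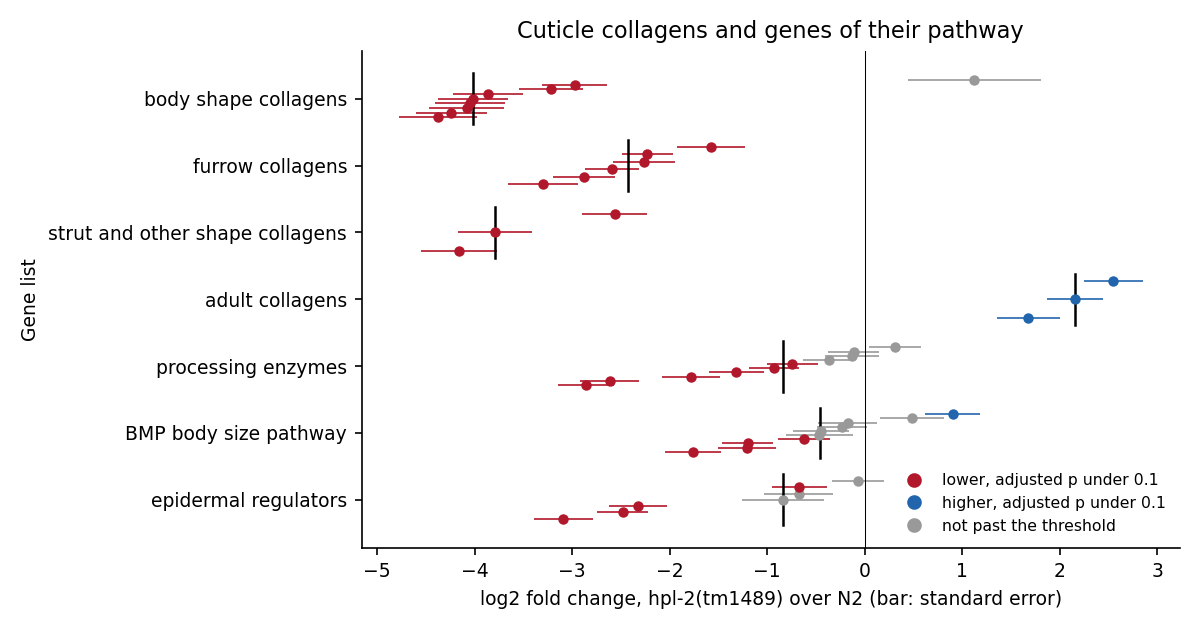
Log2 fold changes (*hpl-2*(*tm1489*) over N2; horizontal bars, standard error) of the body shape collagens and of 6 companion lists, with a black line at each median and color for the call. Medians lie at -4.02 for the body shape collagens, -2.43 for the furrow collagens and 2.16 for the adult collagens.

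Genes that depend on developmental stage differed between the strains as well, some lower like these collagens and others higher. The shares over all tested genes were 27.6% called lower and 33.9% called higher. Of 12 genes of the molting cycle, 11 were called lower, with a median log2 fold change of -3.55, and their summed level was 144 to 221 CPM in *hpl-2*(*tm1489*) and 1645 to 2280 CPM in N2. *mlt-10* was lower by -5.71, whereas *nas-37*, a protease of the shed cuticle, had -0.32 and no call. All 6 vitellogenin genes, which make yolk in the adult intestine, were called lower, with a median of -2.55 and a summed level of 808 to 1647 CPM in *hpl-2*(*tm1489*) and 6620 to 7255 CPM in N2. All 11 oocyte and eggshell genes were called higher, although 8 were without N2 replicate 1 and 9 with the replicate block, which put the median at 1.92. Their median log2 fold change was 2.74, with a summed level of 1282 to 4997 CPM in *hpl-2*(*tm1489*) and 559 to 775 CPM in N2. For 10 of the 11 every mutant library was above both N2 libraries. The libraries of *perm-4* overlapped, at 244, 103 and 365 CPM in *hpl-2*(*tm1489*) replicates 1, 2 and 3 against 101 and 125 CPM in N2. Every gene of these lists had counts in all 5 libraries. Among the mutant libraries the molting list was highest in replicate 1 and lowest in replicate 3, as were the median of the body shape collagens and that of the furrow collagens. The oocyte list was lowest in replicate 2 and the vitellogenin list highest in replicate 3. The part of stage in the lower collagen levels was not tested.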

How the data were processed

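Libraries were stranded and poly(A)-selected. Low-quality ends and short reads were removed by the authors, who used TopHat2 (2.0.14) with the WS220 genome and obtained counts of uniquely mapped reads from Rsubread and the annotation of that release. The deposited table holds these raw counts, and its 5 columns were matched to samples by name. Genes were filtered with edgeR 4.0.16 (filterByExpr, minimum count 10), scaled with TMM and fitted with the robust quasi-likelihood model in R 4.3.3, with genotype as the group. Adjusted p-values are over all 17498 genes. Each standard error is the absolute log2 fold change over the square root of F. Library sizes behind CPM were multiplied by the TMM factor. Gene spans, used because coding lengths were not used here, chromosomes and overlaps came from a RefSeq table of WBcel235, which gave a span for 97.1% of tested genes. List profiles by library used an offset of 0.01 CPM and ratios one of 0.5 counts. Each pair of libraries of 1 strain differed by more than sampling noise (chi-square per degree of freedom at least 97.2). The procedure was tested on simulated counts. Genes that could be named were the 9 collagens, *hpl-2*, the genes of the companion lists and the 5 nearest profiles. Not every gene of the lists is printed, and *pmp-3*, the control transcript of the study, is named for scaling. The members and lists were chosen with earlier results of these data known. *ogdh-2*, *atln-2* and the numbered *col* genes were added after their values were seen. Planned sequence comparisons of proteins and promoters were not run. Alternatives were DESeq2 1.42.0, other scalings, filters and thresholds, a replicate block, removal of a trend with gene span, and each library left out.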

Additional observations from a re-analysis of the deposited data

How the results depend on the processing

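Under all 16 alternatives, 8 body shape collagens were called lower, and none of these 8 genes changed direction or lost its call. Their log2 fold changes ran from -4.87 to -4.05 for *sqt-3* and from -3.32 to -2.68 for *rol-6*, and the largest adjusted p among the 8 was 0.00776, for *rol-6* scaled to *pmp-3*. With each library left out in turn, *dpy-17* ran from 0.38 to 2.60 and 0 to 1 body shape collagens were called higher, the 1 being *dpy-17* without N2 replicate 2, a fit in which the lone N2 library is assumed to vary like the mutant libraries. Leaving out libraries moved the pool share of *dpy-5* in *hpl-2*(*tm1489*) minus N2 from -2.25 to -0.71 points, that of *dpy-13* from -2.49 to -0.47 points (-0.47 without *hpl-2*(*tm1489*) replicate 2), that of *sqt-1* from 0.50 to 1.39 points (0.50 without N2 replicate 1) and that of *sqt-2* from -0.210 to 0.0374 points, with the sign turned only without N2 replicate 2. Shares of counts without division by span put *sqt-3* at -3.61 points. Leaving out shares by library was added after the data were seen.

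Removal of the trend with gene span called 3 processing enzymes higher, and 2 lower and 2 higher in the BMP pathway. Of the processing enzymes 4 were called lower with the replicate block, with scaling to *pmp-3* and above an absolute log2 fold change of 1. Of the epidermal regulators 3 to 6 were called lower over the alternatives. In the BMP pathway 0 genes were called higher with upper quartile scaling, scaling to *pmp-3*, an absolute log2 fold change above 1 or the replicate block, and 0 to 1 with each library left out. For these shifts the cause was not tested. Over all tested genes TMM gave a median log2 fold change of 0.16 with 44.9% of calls lower, upper quartile scaling -0.16 with 57.5%, and library size alone 0.41 with 36%.

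The strains share replicate numbers 1 and 2. Libraries with the same number deviated from their group means with correlations of -0.168 and -0.257. The deviations of the 2 N2 libraries mirror each other, so these values are not independent and cannot show whether a batch was shared. Under the replicate block the calls over all genes came to 7879 instead of 10757, and 8 body shape collagens were called lower, with *sqt-3* at -4.21 and *rol-6* at -2.76. With 2 N2 libraries the spread of N2 is known poorly, and the low counts of *dpy-17* limit what can be said of it.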
